A study of Mus musculus with 6 samples.

Results

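The step from 18 to 21 months of age was followed in 4 of the 6 mouse brain sections of a Visium spatial RNA-sequencing series, as 2 pairs that each lay on 1 slide. A coronal section 16 µm thick was placed on a Visium capture area, whose barcoded spots each collect RNA from a small tissue region that mixes several cell types. The labels give male C57BL/6J mice with no genotype or treatment, 2 animals per age, and an approximate position of -1.655 mm from bregma. Slide 1 held middle 1 (18 months) and old 1 (21 months), slide 2 held middle 2 and old 2, and both sections of the 6-month group, called young here, lay on slide 1. The members were chosen by label alone. UMIs, the counts of distinct captured transcripts, were summed over all spots with at least 500 UMIs, and old 1 was compared with middle 1 and old 2 with middle 2.

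Microglia are the resident phagocytes of the brain, and astrocytes are its support cells. With age both are known to switch on shared groups of genes: microglia express phagocytic and lysosomal genes through the receptor TREM2 and its adaptor TYROBP, and astrocytes raise filament, protease inhibitor and complement genes. White matter, where oligodendrocytes wrap axons in myelin, is a known site of this microglial activity.

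The 4 sections held 2735 to 2973 spots and 60938938 to 76271192 UMIs after the filter. Depth did not overlap between the ages: the median was 26099 and 25904.5 UMIs per spot in middle 1 and middle 2, and 21766 and 20370 in old 1 and old 2. Mitochondrially encoded genes took 15.4% and 14.0% of UMIs in the middle sections against 13.3% and 13.5% in the old ones. Each pair of sections shared 2549 to 2826 barcodes, which in this assay mark positions on the array. The sections of an age were not equal within counting error. Chi-square over degrees of freedom was 32.6 for the middle, 24.0 for the old and 45.6 for the young pair. Each section was taken as 1 animal. A p-value of the main fit therefore sets the step against the spread between these few sections, the young pair included. A single value cannot pass an exact permutation test here, since 2 sections against 2 allow no two-sided p below 0.333 and 2 pairs none below 0.5. Defining markers of brain tissue were present in every section, for example Mbp, a myelin protein, at 2798 to 3301 CPM (counts per 1000000 of the TMM-scaled section total).

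Summed over whole sections, no gene passed the test of the step. Of 17673 genes tested by edgeR's quasi-likelihood test with age and slide as terms, 0 (0%) had an adjusted p under 0.05 in either direction, 358 had an unadjusted p under 0.05, and the lowest adjusted p was 0.9998. The count differed with the sections fitted, the block and the tool. A fit of the 4 middle and old sections with slide as the block called 10 genes (4 higher, 6 lower) and without the block 0, DESeq2 on all 6 sections called 5 (4 higher, 1 lower), and edgeR called 19 without young 1 and 18 without young 2. The 4-section fit with the block has fewer residual degrees of freedom than the main fit, so its calls rest on a less certain spread. The step was small for most genes: at a mean of at least 10 CPM, the median absolute log2 difference of old against middle was 0.0554 on slide 1 and 0.0472 on slide 2. In 53.5% of all tested genes the difference had the same sign on both slides. Groups did not overlap, with both old sections above both middle sections, in 2923 genes (16.5%), and both below in 2864 (16.2%). A difference of at least 1.5-fold on both slides was found upward in 73 genes (0.413%) and downward in 72 (0.407%), and among the 9572 genes of at least 10 CPM in 5 and 4.

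**Figure D1:**
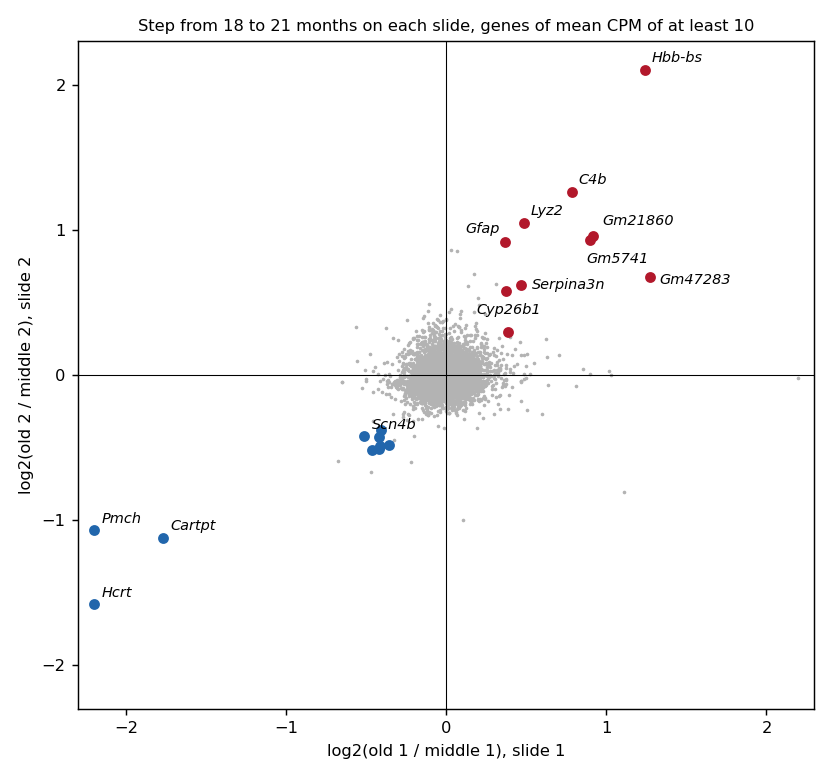
Step from 18 to 21 months for every gene of at least 10 CPM, as log2(old/middle) on slide 1 (horizontal axis) and slide 2 (vertical axis). Each point is a gene, coloured points are the named genes that did not overlap between ages, and 3 genes beyond the axes are drawn at the edge. Hbb-bs, C4b, Gm21860, Gm5741 and Gm47283 lie far up on both slides, and Cartpt, Pmch and Hcrt far down. Lyz2 and Gfap lie up on both slides but farther on slide 2 than on slide 1.

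Genes of reactive astrocytes were higher in both old sections, more so on slide 2. C4b, which encodes complement component C4 (chr17:34728380-34743882, minus strand, GRCm38), was at 43.8 CPM in middle 1 and 42.6 in middle 2, and at 75.4 in old 1 and 102 in old 2. Its log2 difference was 0.78 on slide 1 and 1.26 on slide 2 (fitted 1.02, SE 0.23). C4b has a near-identical neighbour, C4a, which read 1.35 and 1.36 CPM in the middle against 1.33 and 1.23 in the old sections, so reads the 2 copies share make both values uncertain. Gfap, the astrocyte intermediate filament (chr11:102887336-102900912, minus strand), was at 89.1 and 91.1 CPM in the middle sections against 115 and 172 in the old ones. Its log2 difference was 0.37 on slide 1 and 0.92 on slide 2. Serpina3n, a secreted serine protease inhibitor (chr12:104406729-104414329, plus strand), was at 19.9 and 26.5 CPM against 27.5 and 40.7. The old values of both genes lay above both middle values, although old 1 exceeded middle 2 only slightly for Serpina3n. Serpina3n had the most even step of the 3, with 0.46 on slide 1 and 0.62 on slide 2 (fitted 0.54, SE 0.06). It passed the 4-section fit (edgeR adjusted p = 0.0135) and DESeq2 (adjusted p = 0.00385), but its adjusted p lay between 0.00385 and 1.00 under 21 alternatives. Gfap passed only DESeq2 among 21 alternatives (adjusted p = 0.00122, range up to 1.00), and C4b passed none of 21 (lowest adjusted p 0.619).

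Of 14 genes in the reactive astrocyte list, all tested, 9 did not overlap with the old sections above, none lay below, and 10 were higher on both slides, beside 16.5%, 16.2% and 26.8% of all tested genes. The median log2 difference was 0.41 (0.31 on slide 1 and 0.42 on slide 2), against 0.00 over all genes on either slide. Lcn2, a secreted lipocalin, was at 0.240 and 0.131 CPM in the middle sections against 0.497 and 1.20 in the old ones. Timp1, a metalloprotease inhibitor, was at 0.774 and 0.838 against 1.08 and 1.65 CPM. Vim, another filament gene, was at 41.9 and 37.4 against 47.2 and 60.6 CPM. Aqp4, the astrocyte water channel, and Il33, an alarm cytokine, overlapped between the ages, with log2 differences of opposite sign on the 2 slides. Genes of resting astrocytes, such as the glutamate transporters, did not share this direction: 0 of 12 lay above, 4 lay below, and their median was -0.04.

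**Figure D2:**
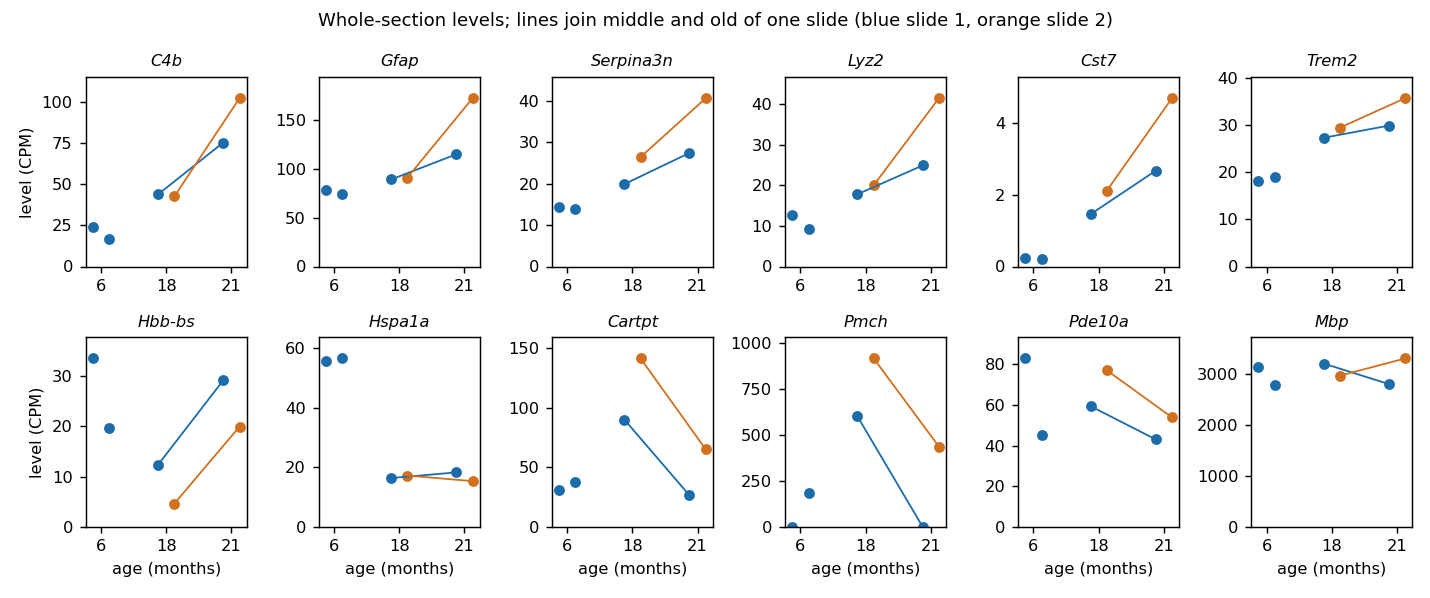
Whole-section level (CPM, vertical axis, from 0) of 12 genes by age in months (horizontal axis). Each point is 1 section, blue on slide 1 and orange on slide 2, and lines join the middle and old section of a slide. C4b, Gfap, Serpina3n, Lyz2 and Cst7 slope up on both slides, Cartpt, Pmch and Pde10a slope down, and the slides slope opposite ways for Hspa1a and Mbp. Ages are spaced as categories, not to scale.

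Genes of activated microglia were also higher in both old sections. Lyz2, encoding lysozyme (chr10:117277331-117282321, minus strand), was at 17.8 and 20.0 CPM in the middle sections against 24.9 and 41.5 in the old ones, log2 0.48 and 1.05. Cst7, encoding the cathepsin inhibitor cystatin F (chr2:150570415-150578944, plus strand), was at 1.45 and 2.11 CPM against 2.67 and 4.69. Its log2 difference of 0.86 and 1.14 (fitted 1.02, SE 0.15) rested on 109 and 161 UMIs in the middle sections against 188 and 290 in the old. Trem2 was at 27.3 and 29.4 CPM against 29.8 and 35.7, and its adaptor Tyrobp at 75.5 and 82.2 against 85.5 and 98.1. Both genes thus had old values above the middle ones by small margins, at log2 0.13 and 0.28 for Trem2 and 0.18 and 0.26 for Tyrobp. Of the 16 list members 15 passed the filter on low counts, and 11 of these lay above, 0 below, and 13 were higher on both slides, beside 16.5%, 16.2% and 26.8% of all tested genes. The list's median was 0.24 (0.09 on slide 1 and 0.44 on slide 2), and it was 0.09 without middle 2 and 0.44 without middle 1. Lgals3, a galectin, was at 2.33 and 2.79 CPM against 3.94 and 5.67, and Spp1, encoding osteopontin, at 21.6 and 23.5 against 17.9 and 25.7, which overlapped.

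Homeostatic microglia genes did not share the direction. Of 12, 4 lay above and 3 below in whole sections, beside 16.5% and 16.2% of all tested genes, with a median of 0.03. P2ry12, the purinergic receptor of resting microglia, was at 29.3 and 28.9 CPM against 27.7 and 27.2, and the fractalkine receptor gene Cx3cr1 at 17.9 and 17.3 against 18.8 in both old sections. In a bulk sum, more cells of a type and more RNA per cell cannot be told apart.

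Complement, lysosome and interferon lists were read against the same 16.5% of all tested genes above and 16.2% below. Of 10 complement genes 5 lay above and 2 below, at a median of 0.24 (0.08 on slide 1 and 0.34 on slide 2) that was 0.08 without middle 2 and 0.34 without middle 1. Among them were C1qc, a chain of the recognition molecule C1q, at 69.9 and 72.2 CPM against 79.4 and 92.7, and C3, the central component, at 1.55 and 1.77 against 2.30 and 2.89. Of 15 lysosomal genes 7 lay above and 0 below, at a median of 0.10 (0.05 without middle 2). Ctsd, encoding cathepsin D, was at 330 and 351 CPM against 361 and 408. Of 16 interferon response genes 9 lay above and 0 below, at a median of 0.19 (0.24 on slide 1 and 0.07 on slide 2, and 0.07 without old 1). Ifitm3, an interferon-induced membrane protein gene, was at 26.6 and 29.2 CPM against 30.6 and 32.7, and Isg15, a ubiquitin-like modifier, at 3.20 and 4.31 against 5.23 and 4.33. Of 13 genes of antigen presentation 2 lay above and 0 below, and B2m, the light chain of MHC class I, was lower on slide 1 and higher on slide 2.

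**Figure D3:**
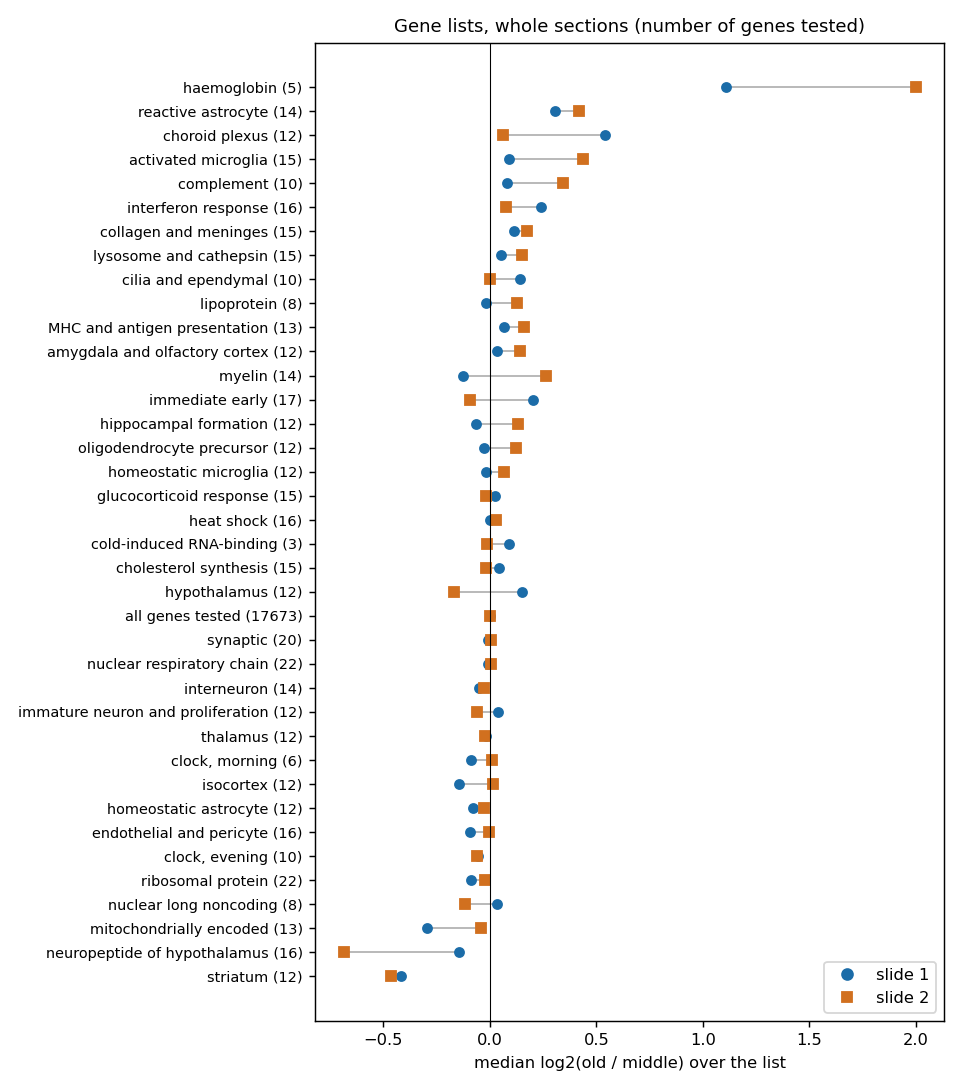
Median log2(old/middle) over the tested genes of each list (horizontal axis), with slide 1 as blue circles and slide 2 as orange squares and the number of genes in brackets. Haemoglobin, reactive astrocyte, activated microglia, complement and interferon lists lie right of 0 on both slides, striatum and hypothalamic neuropeptides lie left on both, and the myelin list changes side between slides.

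The stretches around the transcript start of 4 of these genes are shown because the genes were higher together. The sequences come from RefSeq (GRCm38.p6), span 300 bases each, and are given 5′ to 3′ on the gene's strand. They were searched on both strands for the letters of a STAT site (TTCNNNGAA), an AP-1 site (TGANTCA) and an NF-kB site (a motif with mixed letters), and capitals mark each match. No match overlapped another. Of 32851 promoters of this length in the table, 8.30% held the STAT, 7.81% the AP-1 and 8.46% the NF-kB motif. Serpina3n lies at chr12:104406458-104406757 (plus), Gfap at chr11:102897151-102897450 (minus), Lyz2 at chr10:117282223-117282522 (minus) and Cst7 at chr2:150570165-150570464 (plus).
Serpina3n: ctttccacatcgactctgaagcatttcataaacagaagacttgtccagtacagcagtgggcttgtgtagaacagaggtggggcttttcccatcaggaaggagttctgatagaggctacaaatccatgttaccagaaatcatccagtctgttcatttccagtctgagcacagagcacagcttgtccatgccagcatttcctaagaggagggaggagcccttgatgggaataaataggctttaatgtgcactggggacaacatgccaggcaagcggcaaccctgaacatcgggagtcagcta
Gfap: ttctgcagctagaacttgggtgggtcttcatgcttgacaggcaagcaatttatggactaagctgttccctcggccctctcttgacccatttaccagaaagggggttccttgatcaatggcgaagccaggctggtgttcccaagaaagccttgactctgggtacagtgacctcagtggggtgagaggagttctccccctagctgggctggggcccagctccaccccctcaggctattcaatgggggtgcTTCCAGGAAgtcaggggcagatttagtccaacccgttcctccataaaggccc
Lyz2: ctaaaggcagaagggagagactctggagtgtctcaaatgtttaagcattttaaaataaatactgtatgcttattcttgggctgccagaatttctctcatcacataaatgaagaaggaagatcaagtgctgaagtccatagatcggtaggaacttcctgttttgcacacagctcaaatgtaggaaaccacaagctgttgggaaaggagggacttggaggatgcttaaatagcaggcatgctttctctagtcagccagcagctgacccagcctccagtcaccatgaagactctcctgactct
Cst7: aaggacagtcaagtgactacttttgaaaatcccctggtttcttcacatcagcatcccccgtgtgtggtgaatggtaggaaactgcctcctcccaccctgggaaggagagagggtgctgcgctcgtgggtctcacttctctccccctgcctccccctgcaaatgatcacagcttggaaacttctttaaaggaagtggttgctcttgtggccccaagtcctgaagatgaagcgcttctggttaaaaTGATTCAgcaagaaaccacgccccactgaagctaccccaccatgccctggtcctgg

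Gfap held 1 match to the STAT letters and Cst7 1 match to the AP-1 letters. Serpina3n and Lyz2 held 0 matches to the 3 motifs in this window. A match is a string of letters and no evidence that a factor binds there.

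Haemoglobin genes showed the highest list median. The counts of this paragraph stand beside 16.5% of all tested genes above and 16.2% below. All 5 lay above, at a median of 1.52, and Hbb-bs, a beta chain of haemoglobin, was at 12.3 CPM in middle 1, 4.61 in middle 2, 29.2 in old 1 and 19.9 in old 2. The young sections, at 33.5 and 19.6 CPM, covered the old values. The lowest p-value of DESeq2 for the whole-section step belonged to an alpha-chain gene of haemoglobin (adjusted p = 1.71e-06, mean 8.91 CPM). Haemoglobin transcripts come from red blood cells, and how much blood stayed in each section was not tested. Genes of collagen and meninges had 5 of 15 above and 0 below (median 0.12). Choroid plexus genes, of the tissue that makes cerebrospinal fluid, had 7 of 12 above and 0 below (median 0.34), but 0.54 on slide 1 against 0.06 on slide 2. Ttr, its transthyretin gene, was at 2037 and 3831 CPM in the middle sections against 4118 and 3911 in the old ones, so middle 1 was the lowest of the 6 sections, with the young at 3482 and 2560.

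The lowest levels relative to the middle sections belonged to neuropeptides of the lateral hypothalamus. Pmch, the precursor of melanin-concentrating hormone, was at 601 CPM in middle 1 and 915 in middle 2, and at 0.695 in old 1 and 437 in old 2. Hcrt, the orexin precursor, was at 162 and 221 against 0.667 and 73.8. Old 1 was thus close to 0 for both peptides (49 and 47 UMIs), and young 1 was too, at 0.660 and 1.10 CPM. Cartpt, the precursor of the CART peptide, was at 90.0 and 141 CPM against 26.4 and 65.0, log2 -1.77 and -1.12, and its adjusted p was 0.000809 by DESeq2 and up to 1.00 over 21 alternatives. Of 16 neuropeptide genes 6 lay below and 1 above, beside 16.2% and 16.5% of all tested genes, at a median of -0.42. Oxt, encoding oxytocin, went the other way on slide 1, at 24.1 CPM in middle 1 against 503 in old 1, while both sections of slide 2 were under 1 CPM (0.851 and 0.840). The depth of the cut through the hypothalamus was not measured here, and its part in these values was not tested. With equal numbers of spots of each of 15 clusters per section, the log2 differences were -4.25 for Pmch, -3.57 for Hcrt and -1.31 for Cartpt. For Pmch and Hcrt the sign on slide 1 could hardly turn, since old 1 held so few of their UMIs. Equal numbers of spots per cluster do not show which part of the hypothalamus a section held.

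Striatal genes were lower on both slides by similar amounts. Pde10a, a phosphodiesterase of striatal projection neurons, was at 59.4 and 77.1 CPM in the middle sections against 43.1 and 53.9 in the old ones, log2 -0.46 and -0.52. Scn4b, a sodium channel subunit, was at 45.1 and 57.3 against 31.6 and 42.8, and Drd1, a dopamine receptor gene, at 14.8 and 20.0 against 11.1 and 14.1. These 3 genes did not overlap between the ages, but the young sections differed widely: Pde10a was at 82.9 CPM in young 1 and 45.0 in young 2. All 12 list members were lower on both slides, where 26.7% of all genes were (median -0.46). Without overlap 5 of 12 lay below, beside 16.2% of all tested genes. The 4-section fit with slide as the block called 6 genes lower, and all 6 were members of this list. Among them were Pde10a, Scn4b, Ppp1r1b, Rgs9 and Drd2 (edgeR adjusted p 0.00488 to 0.0138). The main fit called none of them. The share of spots in the cluster led by Penk was 5.85% and 7.14% in the middle against 4.68% and 5.08% in the old sections. When each cluster gave the same number of spots in every section, the fitted log2 difference of Pde10a went from -0.49 to -0.38. That of Scn4b went from -0.47 to -0.36 and that of Drd1 from -0.47 to -0.34. How much striatum each section held was not measured, and its part in these values was not tested.

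The other lists lay closer to 0 or differed more between slides. Counts without overlap stand beside 16.2% of all tested genes below and 16.5% above. Of 13 mitochondrially encoded genes 6 lay below and 0 above, with a median of -0.30 on slide 1 and -0.04 on slide 2. Of 22 ribosomal protein genes 13 lay below and 1 above, at a median of -0.06. Myelin genes overlapped between the ages in 14 of 14, at -0.13 on slide 1 and 0.26 on slide 2, and Mbp read 3202 and 2964 CPM in the middle against 2798 and 3301 in the old sections. The median stayed between -0.06 and 0.06 for synaptic, interneuron, isocortex, thalamus, hippocampal formation, endothelial, cholesterol synthesis, heat shock, glucocorticoid response, morning and evening clock, nuclear respiratory chain, oligodendrocyte precursor, immature neuron, hypothalamus and cold-induced RNA-binding lists. It was 0.06 for the immediate early genes (0.20 and -0.09 by slide) and 0.08 for amygdala and olfactory cortex. It was 0.09 for the lipoprotein genes, 0.10 for the cilia genes and -0.08 for nuclear long noncoding RNAs. A median near 0 could hide slides that differed. The hypothalamus list was at 0.15 on slide 1 and -0.17 on slide 2, isocortex at -0.15 and 0.01, and hippocampal formation at -0.07 and 0.13.

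The remaining named genes included Gm21860, Gm47283 and Gm5741, and how uniquely their reads map was not tested. Gm21860 and Gm47283 on the Y chromosome and Gm5741 on chromosome 8 were higher by log2 0.92 and 0.96, 1.28 and 0.68, and 0.90 and 0.93. Gm21860 and Gm5741 had the lowest p-values of the 4-section fit with slide as the block (edgeR adjusted p = 0.00426 for each). Gm47283 was at 82.5 and 133 CPM in the middle against 200 and 213 in the old sections, but at 278 and 92.0 in the young. The young sections held Gm21860 at 21.4 and 5.55 CPM and Gm5741 at 3.66 and 11.8. For these genes the 2 sections of 1 age thus differed as much. Cyp26b1, a retinoic acid hydroxylase, was at 8.94 and 8.55 CPM against 11.6 and 12.8. Lypd1, a modulator of nicotinic receptors, was at 48.0 and 53.8 against 62.8 and 66.1, and passed the 4-section fit (edgeR adjusted p = 0.0397, 0.0205 to 1.00 over 21 alternatives). Nexn, an actin-binding protein gene, was at 12.06 ± 0.08 CPM in the middle against 8.97 ± 0.09 in the old sections (SD, n = 2), and Tatdn1, a nuclease gene, at 20.1 and 17.9 against 15.2 and 13.8. Lrrc10b was at 23.4 and 30.5 against 18.2 and 21.8 CPM.

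Some genes whose level at 6 months lay far from that at 18 months were at the 18-month level at 21 months. Hspa1a, an inducible chaperone gene, was at 55.6 and 56.5 CPM when young, 16.4 and 17.2 at the middle age and 18.3 and 15.3 when old. Sgk1, a kinase induced by glucocorticoids, was at 143 and 174, then 60.9 and 76.2, then 67.0 and 69.9. AC149090.1, a gene on an unplaced scaffold, was at 122 and 152, then 263 and 277, then 258 and 265. Old and middle values overlapped for all 3 genes. C4b, by contrast, read 24.2 and 16.5, then 43.8 and 42.6, then 75.4 and 102. A test of the later step against the earlier one called 0 of 17673 genes (386 at an unadjusted p under 0.05, lowest adjusted p 0.184 by edgeR), while DESeq2 called 10 and edgeR 83 without young 1 and 39 without young 2. Both steps use the middle sections, so their values are not independent.

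The step was then followed in the 10% of spots of each section with the largest share of UMIs from the 14 myelin genes, which were then left out of the test. These were 274 and 280 spots in the middle against 297 and 286 in the old sections, with a median myelin share of 4.88% and 4.36% against 5.29% and 5.21%. Depth differed too, at a median of 15174 and 14082.5 UMIs per spot in the middle against 9685 and 11274 in the old sections. Here 129 of 12739 genes passed edgeR's test (1.01%), 63 of them higher (0.495%) and 66 lower (0.518%) at 21 months. The count was 1 (Lyz2) without middle 2 or without old 2, 474 without young 1 and 464 without young 2. The higher genes were led by microglial, complement and astrocyte genes, and the lower ones by genes of neurons. The same test in all other spots called 0 of 17563 genes (0%), with 340 at an unadjusted p under 0.05, and a fit of 4 sections with the slide block called 16 there.

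Microglial genes led the calls. Lyz2 was at 88.2 and 109 CPM in the myelin-rich spots of the middle sections and at 191 and 353 in those of the old ones (log2 1.42, SE 0.13, edgeR adjusted p = 0.000125). Cst7 rose from 7.72 and 14.5 CPM to 26.6 and 46.3, with steps of log2 1.71 and 1.64 on the 2 slides (adjusted p = 0.000125, edgeR). Trem2 rose from 85.2 and 99.9 CPM to 139 and 169 (log2 0.73, SE 0.11), and Tyrobp from 225 and 270 to 345 and 448 (log2 0.67, SE 0.10). The steps of these 4 genes on the separate slides were all upward, and each old value lay above each middle value. With each section left out in turn, the adjusted p by edgeR reached 0.0294 for Lyz2, 0.151 for Cst7, 0.289 for Trem2 and 0.266 for Tyrobp. The activated microglia list had 15 tested members (16 in all) at a median of 0.91. Of these 11 were called higher and 0 lower, beside 0.495% and 0.518% of all tested genes. They included Gpnmb, a membrane glycoprotein of lipid-laden phagocytes, from 6.79 and 7.63 CPM to 17.8 and 34.2, and Lgals3, from 18.3 and 15.5 to 31.9 and 54.9. Cd9, Cd52, Cd68, Itgax and Mpeg1 were the other members called. Spp1, Lpl, Axl and Cd63 did not pass. Among homeostatic microglia genes 3 of 12 were called higher, Fcrls and Csf1r among them, beside 0.495% of all tested genes. In these spots 7 of the 12 lay above without overlap and 0 below, beside 22.4% of all tested genes above. Their median was 0.22 (0.23 on slide 1 and 0.57 on slide 2). P2ry12 overlapped, at 47.5 and 51.9 against 55.1 and 49.9 CPM.

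Several complement and lysosomal genes rose in the same spots. C4b was at 380 and 332 CPM in the middle against 1002 and 1100 in the old sections (log2 1.56, SE 0.16, edgeR adjusted p = 0.00147, and up to 0.699 with 1 section left out). All 3 chains of C1q rose, with C1qa going from 290 and 318 to 415 and 580 CPM (log2 0.69), C1qb by 0.71 and C1qc by 0.74. C3 was at 15.2 and 9.91 against 21.0 and 30.1 CPM (edgeR adjusted p = 0.0526). Of 9 tested complement genes (10 in all) 4 were called higher, beside 0.495% of all tested genes. Of 15 lysosomal genes 8 were called higher and 0 lower, beside 0.495% and 0.518% of all tested genes. Ctsd went from 744 and 783 to 1075 and 1383 CPM (log2 0.68, SE 0.11). Ctsa, Ctsb, Ctsz, Grn, Hexa and Laptm5 were among the others called. In all 15 both old sections lay above both middle ones, where 22.4% of tested genes did. Apoe, the main lipoprotein of the brain, rose from 3965 and 4193 CPM to 5492 and 6419 (log2 0.54, SE 0.12). Fcgr2b, an inhibitory antibody receptor, rose from 10.5 and 10.2 to 25.7 and 33.4 CPM, and Neat1, a nuclear long noncoding RNA, from 830 and 720 to 1053 and 1121.

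Astrocyte genes were split. Gfap rose from 657 and 613 CPM to 993 and 1449, log2 0.60 on slide 1 and 1.24 on slide 2 (fitted 0.92, SE 0.13, edgeR adjusted p = 0.00147, and up to 0.517 with 1 section left out). Timp1 and Osmr, the oncostatin M receptor gene, were called as well, and Lcn2 was called on 3 and 0 UMIs in the middle against 16 and 21 in the old sections. With C4b this made 5 of 13 tested genes of the list (14 in all) called higher, beside 0.495% of all tested genes. The list's median was 0.95. Serpina3n had the larger step of log2 1.97 (SE 0.41), from 69.5 and 66.3 CPM to 217 and 323, but an adjusted p of 0.297 by edgeR. With 1 section left out, the step of Serpina3n ran from log2 1.64 without middle 2 to 2.28 without middle 1. The young sections differed from each other for this gene, at 40.7 and 16.0 CPM. S100a6, a calcium-binding protein gene of glia, rose from 275 and 229 to 471 and 578 CPM, and Cebpd, a transcription factor gene of inflammation, from 23.2 and 26.4 to 53.5 and 57.3. Genes of antigen presentation and interferon response had 0 calls among 13 and 16, with 10 and 8 above without overlap, beside 22.4% of all tested genes.

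**Figure D4:**
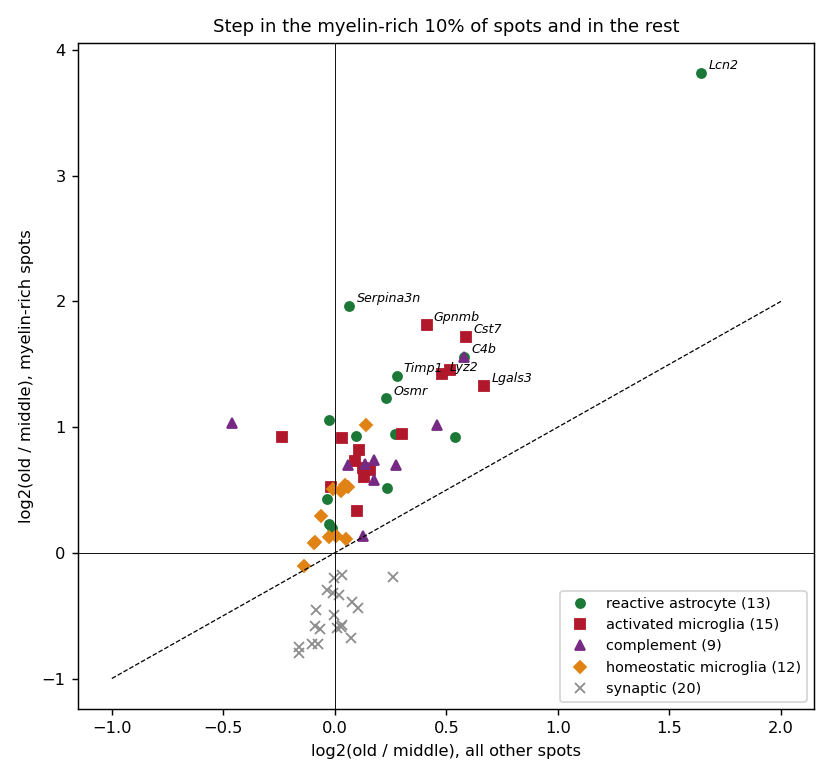
Fitted log2(old/middle) of the genes of 5 lists in all other spots (horizontal axis) and in the myelin-rich 10% of spots (vertical axis). Points are genes, symbols mark the lists, and the dashed line marks equal steps. Microglial, complement and astrocyte genes lie mostly above the line and synaptic genes below it.

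Neuronal genes led the falls in the myelin-rich spots. Nefl, the light neurofilament chain, was at 131 and 186 CPM in the middle against 83.6 and 88.3 in the old sections (log2 -0.87, SE 0.14, edgeR adjusted p = 0.00711, and up to 0.990 with 1 section left out). Gad2, which makes the transmitter GABA, fell from 87.1 and 126 to 62.9 and 58.5 CPM, and Nsg2, a neuronal vesicle protein gene, from 135 and 165 to 95.8 and 88.3. Of 20 synaptic genes 4 were called lower and 0 higher, beside 0.518% and 0.495% of all tested genes. Their median was -0.53. The named falls included Resp18, Nnat, Rgs4, Nat8l, Ina, Calb1 and Ramp3, the last of these a thalamic marker. Hcrt (42 and 112 UMIs against 1 and 7) and Kl, a choroid plexus gene (16.4 and 23.1 against 5.32 and 11.2 CPM), were also called lower. The myelin share of these spots was higher in the old sections, as given above.

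With a fixed floor in place of a fixed 10%, most of the leading glial genes were called again and most of the neuronal ones were not. Spots with at least 4% of UMIs from myelin genes numbered 197 and 165 in the middle against 254 and 242 in the old sections, a definition chosen after the data were seen. There edgeR called 24 genes higher and 2 lower of 12420. Of the 63 genes called higher in the 10%, 23 were called again, and of the 66 called lower, 2. C4b was at log2 1.34 (edgeR adjusted p = 0.00771), Lyz2 at 1.26, Cst7 at 1.47, Gfap at 0.74 and Trem2 at 0.54, and each passed. Nefl was at -0.32 and Gad2 at -0.42, and neither passed (edgeR adjusted p = 0.771 and 0.745). The synaptic median went from -0.53 to -0.24 with 0 of 20 called, and 7 of 15 activated microglia genes were called at a median of 0.76. In the spots of cluster 2, a cluster of spots with similar expression whose leading genes include Apod, Trf and Mbp, edgeR called 4 genes, all higher, and C4b, Cst7, Lyz2 and Serpina3n were these 4 (log2 1.45, 1.67, 1.39 and 1.79).

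The step in myelin-rich spots was set against the step in all other spots of the same sections by an interaction term. Of 17118 genes, 350 differed (2.04%), of which 60 (0.351%) had a more positive and 290 (1.69%) a more negative step in myelin-rich spots, and 102 of the 129 genes called in myelin-rich spots were among them. C4b, with a step of log2 1.56 in myelin-rich and 0.58 in other spots, differed by 0.96 (SE 0.11, edgeR adjusted p = 4.49e-13). Lyz2 differed by 0.91, S100a6 by 0.87, Cebpd by 1.08 and C1qa by 0.61, and Trem2 (0.73 against 0.09) and Tyrobp (0.67 against 0.13) by 0.62 and 0.52. Gfap, with 0.92 against 0.54, differed by 0.36 (edgeR adjusted p = 0.0368). Cst7 differed by 1.10 and Serpina3n by 1.88, which did not pass (edgeR adjusted p = 0.0912 and 0.326). The activated microglia list had 11 of 15 genes with a more positive step, the lysosomal list 9 of 15 and the homeostatic microglia list 4 of 12. A more negative step was called in 10 of 20 synaptic and 8 of 12 choroid plexus genes. The count was 58 (38 more positive, 20 more negative) with the fixed 4% floor, 4 with cluster 2 and 0 of 12738 with limma on the within-section differences. It was 48 without middle 2 and 46 without old 2.

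The step was last split over 15 clusters of spots with similar expression. C4b was higher on both slides in 12 clusters and lower on both in 1, the cluster led by Nrgn, Egr1 and Camk2n1 (3.61 and 6.12 CPM against 3.57 and 3.64, on 14 to 33 UMIs). In cluster 2 C4b went from 287 and 274 CPM to 755 and 812, a ratio of 2.63 on slide 1 and 2.96 on slide 2. The cluster led by Pvalb and Gad1 had ratios of 2.15 and 2.28 and the cluster led by Vxn 1.75 and 1.85. Gfap was higher on both slides in 10 clusters, with ratios of 1.52 and 2.29 in cluster 2 and 1.75 and 1.95 in the Penk-led one. Lyz2 was higher on both in 9 clusters and Tyrobp and Ctsd in 11 each. Serpina3n was higher on both in 7 and lower on both in 2. It went from 53.1 and 59.9 CPM to 175 and 223 in cluster 2, but from 38.2 and 147 to 26.5 and 67.5 in the cluster led by Pmch and Resp18. In the sum over whole sections these opposite steps of Serpina3n are added together. These values per cluster were not tested.

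**Figure D5:**
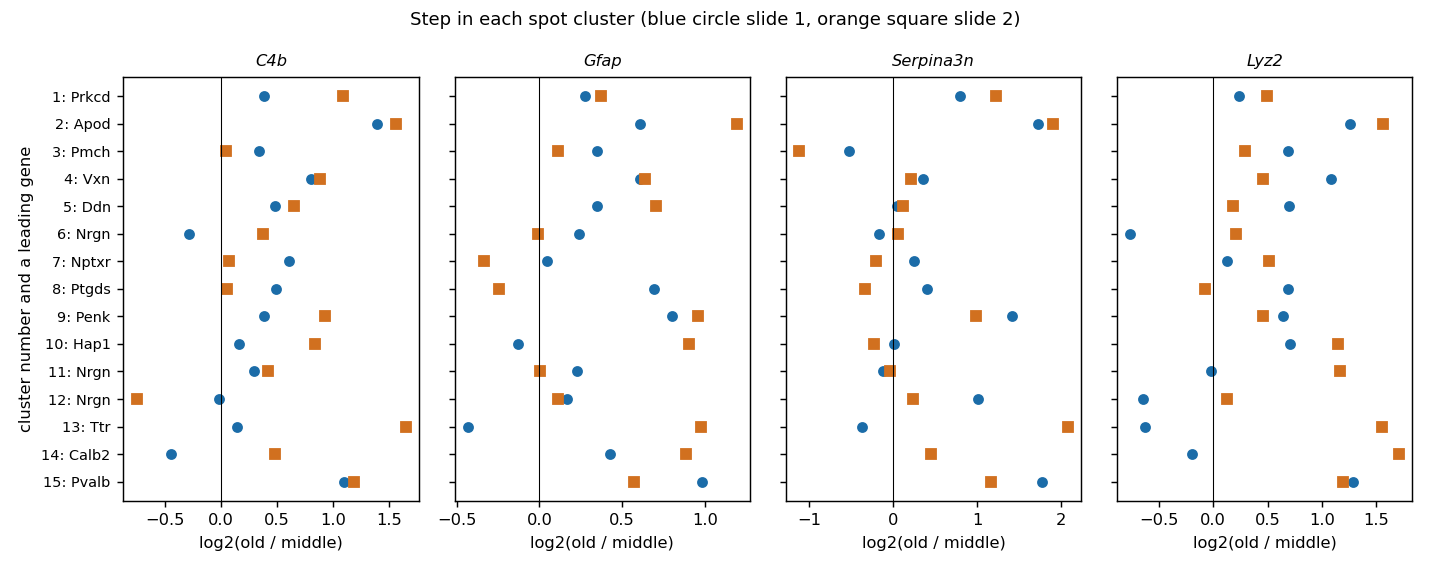
log2(old/middle) of C4b, Gfap, Serpina3n and Lyz2 (horizontal axes) in each of 15 spot clusters (vertical axis, number and 1 of its leading genes), with slide 1 as blue circles and slide 2 as orange squares. Serpina3n in cluster 14 has no slide 1 point because middle 1 held 0 UMIs there. Cluster 2 lies far right for all 4 genes on both slides, and Serpina3n lies left of 0 in the Pmch-led cluster.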

How the data were processed

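Visium spatial RNA-sequencing measured UMIs per gene and spot in 6 coronal brain sections, of which the 2 middle and 2 old sections were compared and the 2 young ones added to the estimate of the spread. The authors deposited raw UMI counts per section, and per the file headers they come from Space Ranger 1.3.1, while the submitters' processing notes name version 3.1 and the build mm10. The aligner settings and annotation are not given in the sources used here, and neither tissue images nor spot positions were used. GENCODE M21 (GRCm38) gave positions for 32235 of the 32285 genes.

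Counts were summed per section over spots with at least 500 UMIs, which kept 16741 spots, and tested with edgeR 4.0.16 in R 4.3.3 (filterByExpr, TMM, robust quasi-likelihood, 2 residual degrees of freedom) with age and slide as terms. Adjusted p-values are Benjamini-Hochberg over all tested genes, two-sided. CPM use TMM-scaled totals, and slide differences are log2 CPM with a prior count of 2. DESeq2 1.42.0 and limma 3.58.1 served as alternatives. Spot clusters came from scanpy 1.11.5 (Leiden, resolution 0.8). No doublet caller was run on spots.

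Slide pairs the sections by the labels, with animals differing. The difference of old 1 and old 2 correlated with that of middle 1 and middle 2 at r = 0.241 over 17673 genes, and at 0.472 over the 9589 genes with a mean of at least 10 CPM.

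Named were, in each direction, genes of at least 10 CPM without overlap and with the largest smaller within-slide difference (10 genes). Named likewise were the 10 called genes of lowest p. So were 5 genes each by size in myelin-rich spots and in the difference between spot classes. Also named were list members called, without overlap or most abundant, and a set of glial, stress and other genes whatever their values. Only some of these are printed, and some genes are not reported here. The comparison, the gene lists and the named set were chosen with earlier results of these data known, so they are no independent support.

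On simulated counts with 200 genes changed by log2 1, the test recovered 79.1% in whole sections (17673 genes). It recovered 71% in myelin-rich spots (12739 genes) and 50.9% of differences between spot classes (17118 genes). Of the calls, 14.6%, 9.44% and 9.91% were genes that had not been changed. With no gene changed, a mean of 5, 4.4 and 5.6 genes was called. The counts were drawn with the spread fitted to each gene. In the real whole sections no gene was called, although C4b was fitted at log2 1.02. The recovered shares therefore do not measure how many real changes were missed.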

Additional observations from a re-analysis of the deposited data

Results flagged for a closer look

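The step from 18 to 21 months differed between myelin-rich spots and the rest of the spots of a section in 350 genes by the interaction test of edgeR (adjusted p under 0.05). Among the called genes of at least 10 CPM in both spot classes, the largest positive differences, given as the log2 step in myelin-rich spots minus that in other spots, were 1.28 for Nupr1, a stress-induced chromatin protein gene, 1.12 for Spp1, 1.08 for Cebpd, 0.99 for H2-T23, a non-classical MHC class I gene, and 0.96 for C4b. The largest negative ones under the same limit were -2.04 for Hcrt, -1.75 for Kl, -1.42 for Clic6, a chloride channel gene of the choroid plexus, -1.20 for Fam183b and -1.11 for Tmem130. Spp1, H2-T23, Clic6 and Fam183b did not pass the test within myelin-rich spots alone (edgeR adjusted p 0.131 to 0.538). With 1 section left out, the difference of Spp1 ran from 0.55 without middle 2 to 1.52 without old 1 (edgeR adjusted p up to 0.878), that of H2-T23 from 0.43 to 1.75 over the same settings (up to 1), that of Clic6 from -1.94 to -0.94 (up to 0.131) and that of Fam183b from -1.42 to -0.87 (up to 0.305). Nupr1 ran from 1.15 to 1.43 (up to 0.0981), and C4b, Cebpd, Kl and Tmem130 passed with any 1 section left out. Over all 15 alternatives Spp1 was as low as 0.067. Hcrt rested on 1 and 7 UMIs in the myelin-rich spots of the old sections, its steps fitted separately in the 2 classes were -3.97 and -3.90, and its difference was 1.245 with limma on the within-section differences. With limma, 0 of 12738 genes passed.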

How the results depend on the processing

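Alternatives that leave out a replicate gave 0 to 19 genes for the whole-section step, 0 to 83 for the later against the earlier step, 1 to 474 in myelin-rich spots, 0 to 21 in all other spots and 46 to 452 for the difference between spot classes. For the whole-section step, main count 0, the middle and old sections alone with the slide block gave 10 and DESeq2 5, and the other settings that did not leave out a single section gave 0. For the later against the earlier step, main count 0, the fits with no replicate block and with replicate number as the block gave 1 each, no filter on low counts 2, equal numbers of spots per cluster 1 and DESeq2 10. Genes past 1.5-fold on both slides, 73 up and 72 down, became 353 and 210 with no filter, 38 and 23 with at least 10 counts in every section, 7 and 14 at 2-fold, and 319 and 237 at a looser fold threshold. The 129 calls in myelin-rich spots became 108 with no replicate block and 192 with replicate number as the block. They became 484 and 211 in the middle and old sections alone with and without the slide block, 57 at 5% and 57 at 15% of spots, 26 with the 4% floor, 4 in cluster 2 and 30 with DESeq2. All other spots gave 16 calls with the middle and old sections alone and the slide block. The 350 differences between spot classes became 213 with no replicate block, 66 at 5% and 32 at 15% of spots, 58 with the 4% floor, 4 with cluster 2 and 0 with limma. The log2 difference of Hspa1a, -0.0018, was 0.0030 with no replicate block, 0.00036 with replicate number as the block, 0.0035 in 4 sections with no block and 0.0025 with limma-voom. That of Sgk1, 0.0070, was -0.00168 with no replicate block, -0.0016 in 4 sections with no block and -0.0068 with equal clusters. The difference of Hcrt between spot classes was 1.245 with limma. Leaving out a section turned the sign of Mbp (-0.20 to 0.15), Sgk1 (-0.13 to 0.14), Fos (-0.18 to 0.47), Dcx (-0.076 to 0.29), B2m (-0.14 to 0.16), Il33 (-0.18 to 0.21), Gpr17 (-0.049 to 0.083), Neat1 (-0.0068 to 0.28), Hspa1a (-0.17 to 0.16) and Arc (-0.24 to 0.034) in whole sections and of Hcrt between spot classes (-2.25 to 3.01), given as lowest to highest. The cause of these changes was not tested. Where 1 section of an age was left out, the lone one was assumed to vary like the other groups. In myelin-rich spots genes of few UMIs limit precision, and counts cover only 2 sections per age.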
